A study of Rattus norvegicus with 123 samples.

Results

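The livers described here came from rats dosed with piperonyl butoxide at 600 mg/kg for 14 or 28 days, and from the vehicle controls killed on the same days. They account for 12 of the 112 arrays of the series that the labels mark as of good quality, 6 from treated and 6 from control animals, and were taken by treatment group. A further 11 arrays of the series do not carry that mark, and 0 of them belong to these groups. The groups are PBO_M_600ppm_14d (600 mg/kg, 14 d, 3 arrays), CMC_C_14d (carboxymethylcellulose, 14 d, 3 arrays), PBO_M_600ppm_28d (600 mg/kg, 28 d, 3 arrays) and CMC_C_28d (carboxymethylcellulose, 28 d, 3 arrays). All animals were adult male Han Wistar rats that were randomised to groups, gavaged every day and killed on the day after their last dose. Total RNA of frozen liver, whose integrity numbers were all high per the labels, was hybridised to Affymetrix RaGene 2.0 ST arrays. The group names give doses as ppm and the labels as mg/kg, and the labels are followed. The series sets compounds classed as liver carcinogens that do not act on DNA directly against 2 that are not so classed, and piperonyl butoxide belongs to the carcinogens. There is a single dose, so no dose dependence could be examined.

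Piperonyl butoxide is an insecticide synergist. Its methylenedioxyphenyl group is converted by cytochrome P450 enzymes into an intermediate that blocks those enzymes, which slows the breakdown of pyrethrins in insects. In rodent liver repeated dosing is known to enlarge hepatocytes and to induce P450 and other drug-metabolising enzymes, in large part through the constitutive androstane receptor, the nuclear receptor that also mediates the response to phenobarbital. Receptors of this kind act mainly by changing the transcript levels of their target genes, which is the quantity an expression array reads.

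Each value is a deposited log2 level of a probe set that carries an Ensembl transcript identifier, so a difference of 1 is a 2-fold change. The reference tables at hand hold none of these identifiers and paired 0 of 23110 probe sets with a gene symbol. Genes, pathways and the defining markers of liver and other cell types could therefore not be named or checked, and no sequence could be assigned. The results are given for 22470 transcripts with distinct values, and 4 of them are named by identifier. A transcript was called raised or lowered when limma's moderated test, with the spread estimated over 112 arrays in 29 groups, gave a Benjamini-Hochberg adjusted p under 0.05. Whole liver was assayed, so fewer cells of a type and less RNA per cell cannot be told apart.

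The array medians of the series lay between 5.43 and 5.64. The SD between the 3 arrays of a group had a median over transcripts of 0.169 in PBO 14 d, 0.145 in its controls, 0.248 in PBO 28 d and 0.16 in its controls. Replicate 1 of PBO 28 d stood apart from the rest of its group. It differed by at least 1 log2 unit from both other arrays in 660 transcripts, 339 above and 321 below, against 84 and 126 for replicates 2 and 3. For the 3 arrays of PBO 14 d these counts were 92, 121 and 80, and for the 6 control arrays they ran from 52 to 116. Many results for 28 d are therefore given with and without this array. Those given without a second value rest on all arrays.

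**Figure D1:**
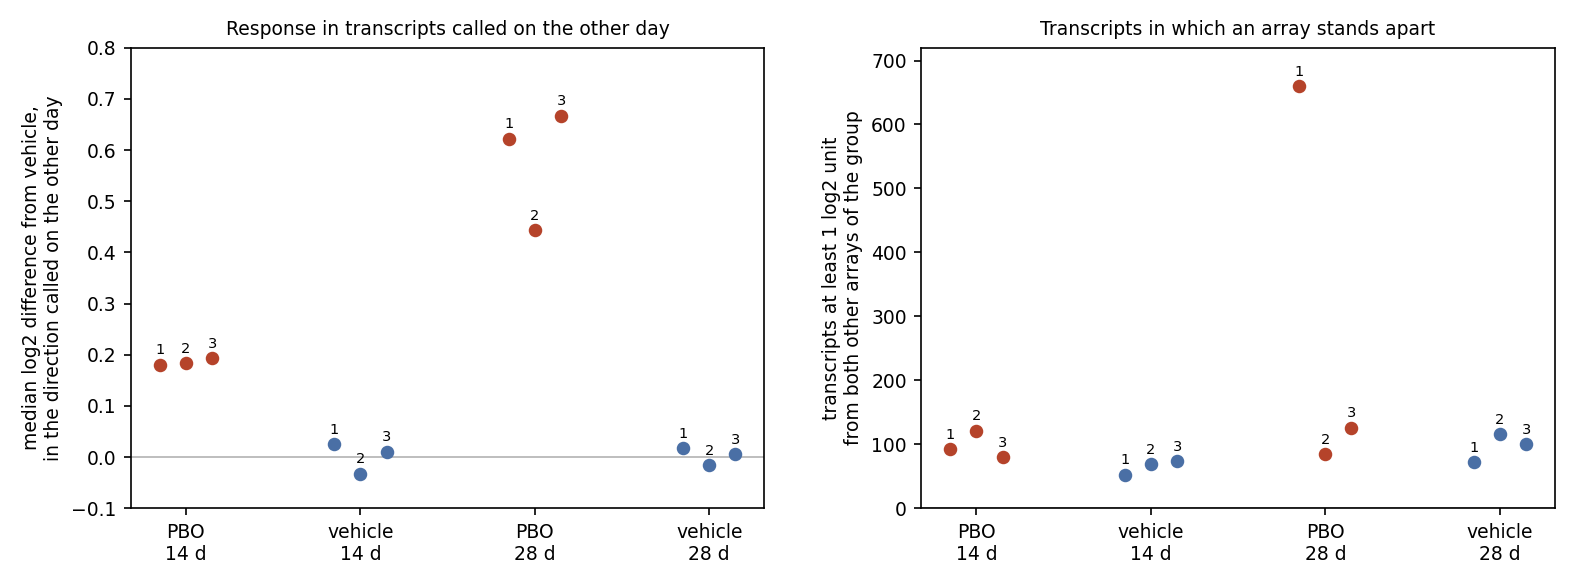
Each point is 1 array, numbered by replicate, of piperonyl butoxide (PBO, red) or vehicle (blue). Left, the median log2 difference from the mean of that day's controls over the transcripts called on the other day, signed by the direction called there: treated arrays lie at 0.180 to 0.193 at 14 d (2390 transcripts) and 0.444 to 0.667 at 28 d (428 transcripts), and control arrays lie near 0. Right, the number of transcripts in which an array lies at least 1 log2 unit from both other arrays of its group: replicate 1 of PBO 28 d reaches 660, and the other 11 arrays lie between 52 and 126.

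At 14 d piperonyl butoxide changed 428 transcripts. It raised 276, which is 1.23% of those tested, and lowered 152, or 0.676%. Of these, 55 were raised and 40 lowered at least 2-fold, and 9 were raised and 3 lowered at least 4-fold. The median change was 0.58 among the raised and -0.67 among the lowered transcripts. The 95% interval of a single difference had a median half-width of 0.33 log2 units, which bounds the sizes that 3 arrays against 3 can show. The count was 277 without treated replicate 1, 262 without treated replicate 3, 197 without control replicate 2 and 245 without control replicate 3. With only the groups of control set C in the fit, which are the arrays of piperonyl butoxide, methapyrilene and their common controls, it was 131.

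At 28 d the number called was 2390. Here 1107 transcripts were raised (4.93%) and 1283 lowered (5.71%), and 109 and 114 of them changed at least 2-fold. The 4-fold changes numbered 22 raised and 12 lowered. The median change was 0.51 among the raised and -0.53 among the lowered, close to the values at 14 d. The interval of a difference had the same width on both days by construction, because all groups share 1 estimate of the spread. The SD within PBO 28 d, 0.248 at the median, exceeded the 0.169 of PBO 14 d. Leaving out treated replicate 1 gave 1057 calls, 543 raised and 514 lowered, of which 850 were among the 2390. The 2-fold changes then numbered 106 raised and 98 lowered, a smaller drop than that in all calls. The count was also lower without control replicate 2, at 1525, and with only set C in the fit, at 873. With the spread taken from the groups of each comparison alone, 72 were called at 28 d and 79 at 14 d. The greater number of calls at 28 d was thus not seen in that setting. With each array centred on its median the share raised was 57.8% of the calls, against 46.3% as deposited, so which direction prevailed at 28 d depends on the scaling.

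The transcripts that set replicate 1 of PBO 28 d apart had median changes near 0 at 14 d. In the 339 transcripts where it lay above both other arrays, its median distance from the 28 d control mean was 1.03, against -0.30 for the other 2 treated arrays, and the median 14 d change was 0.06. Of these 339, 16 were called raised and 5 lowered at 28 d. In the 321 transcripts where it lay below, its median distance was -1.22, against 0.03 for the other 2 arrays, with a median 14 d change of -0.05. Here 136 were called lowered and 4 raised. Over all 22470 transcripts, 4.93% were called raised and 5.71% lowered at 28 d. The 660 were chosen on the same 28 d arrays that give these calls, so their 28 d counts are a description. Of the 660 transcripts, 2 were called in the same direction on both days, against 165 raised and 120 lowered on both days among all 22470. Transcripts with a wide spread within the 28 d group pass the choice of these 660 more readily. In transcripts called at 14 d its own response, 0.622, lay between those of replicates 2 (0.444) and 3 (0.667).

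The 14 d and 28 d animals do not overlap in treated or control arrays, so each day can be read on transcripts chosen on the other. Over the 2390 transcripts called at 28 d, signed by their direction there, the median difference from controls was 0.180, 0.184 and 0.193 in the 3 arrays of PBO 14 d, against 0.025, -0.033 and 0.010 in the 14 d control arrays around their own mean. Over the 428 transcripts called at 14 d, it was 0.622, 0.444 and 0.667 in the 3 arrays of PBO 28 d, against 0.017, -0.016 and 0.005 in the 28 d control arrays. Every treated array lay above every control array of its day in this measure. The response showed in both directions: the 28 d median was 0.50 for transcripts raised at 14 d and -0.66 for those lowered. At 14 d it was 0.20 for transcripts raised at 28 d and -0.18 for those lowered.

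The sign at 14 d matched the 28 d call in 84.8% of the 2390 transcripts, in 940 of the 1107 raised and in 1087 of the 1283 lowered. Among the 19937 transcripts called on neither day the share was 55.9%. Without replicate 1 of PBO 28 d the share among the called was 92.7%. Across all 22470 transcripts the changes of the 2 days had a Pearson r of 0.435, and 0.423 without that array. The correlation is across transcripts of the same 12 arrays, which are not independent replicates.

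A set of 165 transcripts was raised on both days and 120 were lowered on both days, while 0 were called in opposite directions. The 165 make up 59.8% of those raised at 14 d and 14.9% of those raised at 28 d, and the 120 make up 78.9% and 9.35% of those lowered. In 155 of the 165 and 113 of the 120, the treated and control arrays did not overlap on either day, which selection by the test favours. Over all 22470 transcripts, the treated arrays lay wholly above the controls in 2164 and wholly below in 1837 at 14 d, and in 2295 and 2087 at 28 d. Without replicate 1 of PBO 28 d the lists held 160 raised and 112 lowered transcripts, sharing 136 and 94 with those from all arrays. Some of these transcripts move as 1: 30 of the 165 and 24 of the 120 had a partner in their list with a residual correlation above 0.9 over the 112 arrays, and joining partners leaves 147 and 106 groups. The lists were chosen on both contrasts, so their sizes of change are a description. The median change of the 165 was 0.63 at 14 d and 0.74 at 28 d, and that of the 120 was -0.66 and -0.82. The change was larger at 28 d in 106 of the 165 and in 81 of the 120.

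**Figure D2:**
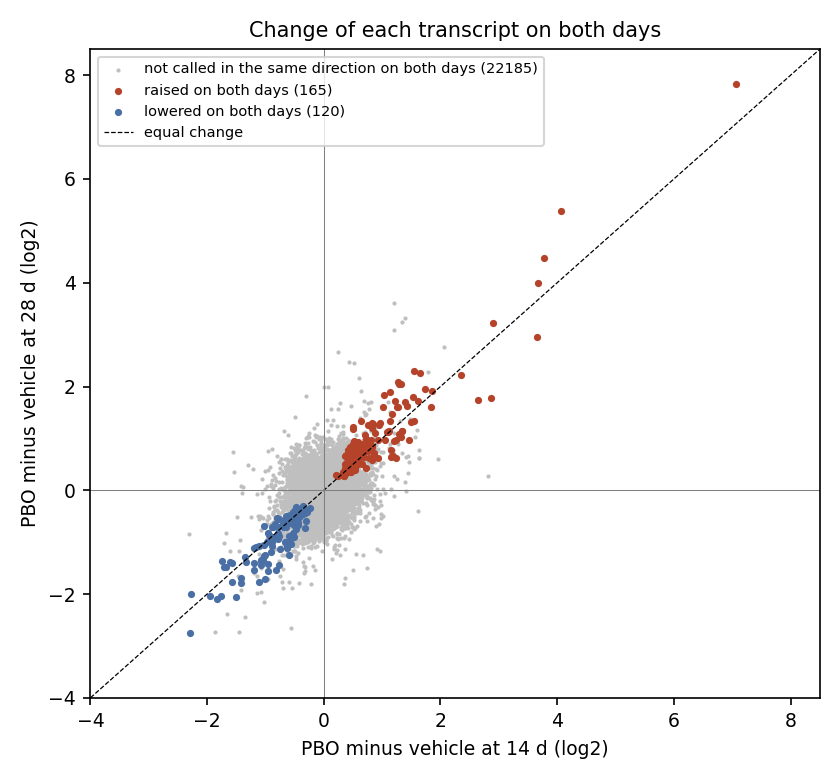
Each point is 1 of 22470 transcripts, with its PBO minus vehicle log2 difference at 14 d on the horizontal axis and at 28 d on the vertical axis. The 165 transcripts raised on both days (red) and the 120 lowered on both days (blue) lie along the dashed line of equal change, and the largest rises reach 7.07 at 14 d and 7.84 at 28 d.

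The size of the recurring response was uneven. At least 2-fold changes on both days were seen in 38 raised transcripts, with a median of 1.40 at 14 d and 1.74 at 28 d, and in 30 lowered transcripts, with medians of -1.34 and -1.42. The rises extended much further than the falls. The 7 transcripts raised at least 4-fold on both days changed by 2.36 to 7.07 at 14 d (median 3.66) and by 2.22 to 7.84 at 28 d (median 3.99). The 2 lowered at least 4-fold on both days changed by -2.30 and -2.27 at 14 d and by -2.75 and -2.0 at 28 d.

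The 2 transcripts with the largest rises and these 2 with the largest falls are named here. They were taken by the mean of both days' differences among transcripts called in the same direction on both days without overlap of treated and control arrays on either day, so the separation of the groups is part of the choice. ENSRNOT00000044127 read 11.96, 11.60 and 11.71 in the 3 PBO 14 d livers, against 5.33, 4.16 and 4.57 in their controls. At 28 d it read 11.55, 12.15 and 12.95 under PBO, against 4.91, 4.66 and 3.57 in controls. The treated livers were thus all far above the control livers, and the lowest treated value, 11.55, exceeded the highest of the 50 control arrays of the series, 8.85. The difference was 7.07 (SE 0.74, adjusted p = 1.92e-11) at 14 d and 7.84 (SE 0.74, adjusted p = 1.18e-13) at 28 d, which correspond to 135-fold and 229-fold on the scale of the array. The control mean lay at percentile 34.4 of all transcripts, and no measure of background was used here, so these folds rest on a control level that may be near background. The difference between the days, 0.77, did not pass the test (adjusted p = 0.853).

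ENSRNOT00000028196 read 12.56, 12.54 and 12.69 in the PBO 14 d livers, against 9.13, 7.53 and 8.93 in controls. At 28 d the values were 12.37, 12.64 and 13.24 under PBO, against 7.48, 7.27 and 7.37 in controls. All 6 treated livers lay within 1 log2 unit of each other, while the controls varied more at 14 d than at 28 d. The difference was 4.06 (SE 0.62, adjusted p = 2.75e-06) at 14 d and 5.38 (SE 0.62, adjusted p = 2.28e-10) at 28 d. The day difference of 1.32 did not pass the test (adjusted p = 0.616), and the control groups themselves differed by -1.16 between 28 and 14 d (adjusted p = 0.76). The 50 control arrays of the series ran up to 10.95, below the lowest treated array.

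Of the falling transcripts, ENSRNOT00000014267 read 5.48, 4.61 and 5.51 in the PBO 14 d livers, against 7.14, 7.45 and 7.91 in controls. At 28 d it read 5.68, 5.12 and 3.00 under PBO, against 7.73, 7.18 and 7.13 in controls. The treated 28 d livers were widely spread, with replicate 3 lowest. The difference was -2.30 (SE 0.35, adjusted p = 2.75e-06) at 14 d and -2.75 (SE 0.35, adjusted p = 6.21e-09) at 28 d. With the spread taken from the 28 d groups of this comparison alone, the adjusted p at 28 d was 0.123. The controls of this study set were high for this transcript: CMC_C exceeded the CMC_A controls of phenobarbital by 1.53 (SE 0.31, adjusted p = 0.00567) at 28 d, and 16 of the 50 control arrays of the series lay at or below the highest PBO array.

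ENSRNOT00000073593 read 8.21, 7.22 and 7.68 in the PBO 14 d livers, against 9.89, 10.00 and 10.04 in controls. At 28 d it read 7.74, 7.81 and 7.85 under PBO, against 10.01, 9.65 and 9.75 in controls. The difference was -2.27 (SE 0.34, adjusted p = 1.8e-06) at 14 d and -2.0 (SE 0.34, adjusted p = 1e-05) at 28 d. All 6 treated livers lay below all 50 control arrays of the series, which ran from 8.72 to 10.04.

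**Figure D3:**
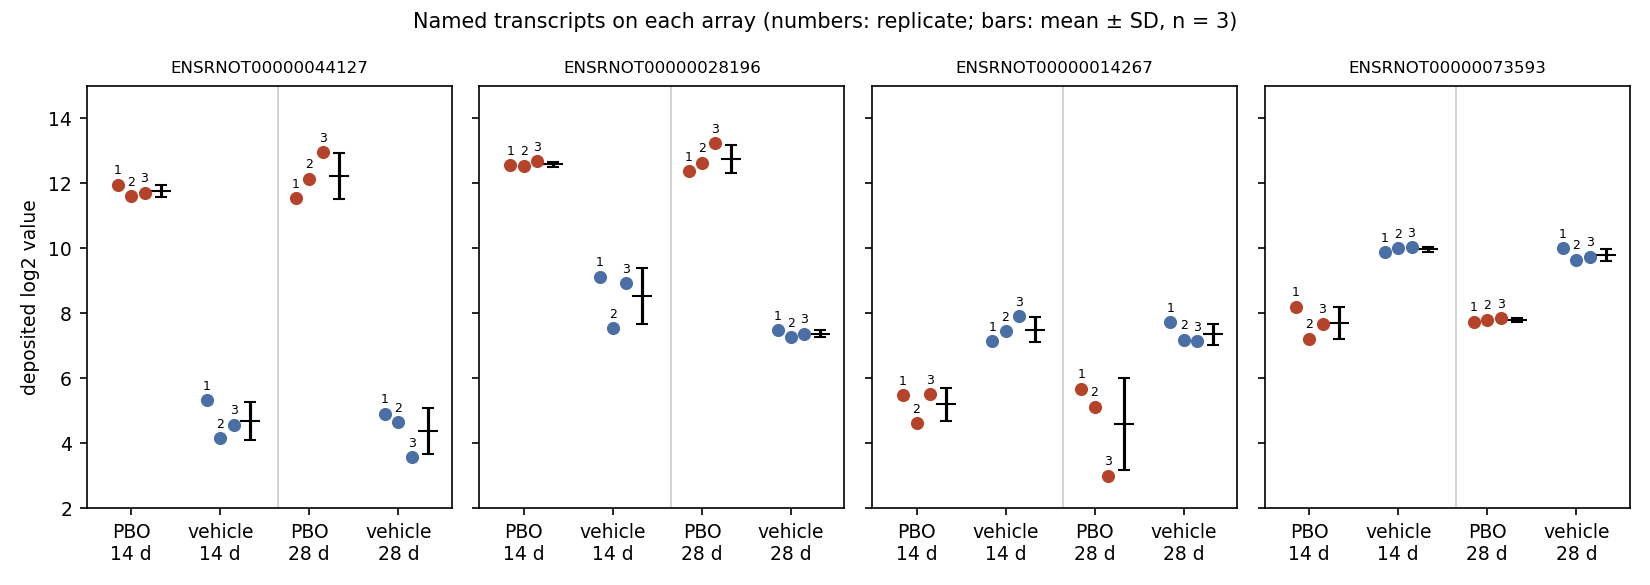
Deposited log2 values of the 4 named transcripts on each array of piperonyl butoxide (PBO, red) and vehicle (blue) at 14 and 28 d, with points numbered by replicate and bars giving mean ± SD (n = 3). Absence of overlap between treated and control points of a day was a condition for naming these transcripts, and the widest treated group is ENSRNOT00000014267 at 28 d, where replicate 3 reads 3.00.

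Piperonyl butoxide's effect differed between 28 and 14 d in 9 transcripts, 0.0401% of those tested, by the test of the difference itself (2411 at an unadjusted p under 0.05). The effect was 0.80 to 1.30 higher at 28 d in 6 of them and lower in 3, with differences of -1.05 to -1.24. All 9 were called at 28 d, 0 at 14 d, and 0 belong to the lists called on both days. In 3 of the 6, the controls were lower at 28 d than at 14 d, by -0.80, -0.81 and -0.71, while the treated groups were higher by 0.50, 0.48 and 0.45. In the other 3 the treated groups were higher at 28 d by 0.86, 0.96 and 0.79, with control differences of -0.06, 0.05 and -0.01. The control groups differed from each other between the days in 1 transcript (0.00445%), with 1539 at an unadjusted p under 0.05. The greater number of calls at 28 d is therefore not matched by tested differences between the days, and the half-width of a day difference, 0.47 at the median, is close to the median change of 0.51 among transcripts raised at 28 d. With arrays centred on their medians 7 were called, 6 higher and 1 lower. The count of 9 moved strongly with single arrays. It was 450 without replicate 2 of PBO 28 d and 101 without replicate 3, and it was 2 without replicate 3 of PBO 14 d, 3 without control replicate 2 at 14 d and 4 without control replicate 2 at 28 d.

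The transcripts called at 28 d were more frequent among brighter probe sets. The transcripts were sorted into 10 equal bins by their mean in the 44 control arrays of other study sets, which the contrast does not use. Of the brightest 2247, 554 were called at 28 d (24.7%) and 5.92% at 14 d, while of the dimmest 2247, 42 were called at 28 d (1.87%) and 0.267% at 14 d. The median residual SD was 0.13 in the brightest and 0.26 in the dimmest bin, so a given change passes the test more readily at high levels, and brightness also depends on a probe set's probes. Without replicate 1 of PBO 28 d these 28 d shares were 14.5% and 0.356%. In the lists called on both days, 62 of the 165 raised and 45 of the 120 lowered transcripts lay in the brightest bin. The median control level was 7.91 for the 165 and 8.00 for the 120, against 5.50 for all transcripts.

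Whether other compounds moved the same transcripts was read at 28 d, in animals with their own controls. Phenobarbital (80 mg/kg, 5 arrays, carboxymethylcellulose set A) is a barbiturate and the classical inducer of liver drug metabolism. 1,4-Dichlorobenzene (600 mg/kg, 4 arrays, corn oil set B) is a chlorinated aromatic, Wy-14643 (60 mg/kg, 5 arrays, carboxymethylcellulose set B) activates the nuclear receptor PPAR alpha, and cyproterone acetate (100 mg/kg, 4 arrays, corn oil set D, groups lettered M) is a steroid antiandrogen. Pioglitazone (63 mg/kg, 5 arrays) and rosiglitazone (10 mg/kg, 3 arrays), both PPAR gamma agonists classed in this series as non-carcinogens, share a water control. Doses, vehicles, study sets and array numbers differ between these compounds, so the counts below are set side by side and are not ranked as potencies.

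Of the 165 transcripts that piperonyl butoxide raised on both days, phenobarbital raised 63 (38.2%) and lowered 0, against 0.952% and 0.28% of all transcripts. 1,4-Dichlorobenzene raised 105 (63.6%) and lowered 0, against 3.89% and 2.07% of all. Cyproterone acetate raised 110 (66.7%) and lowered 1, against 6.16% and 5.14%. Wy-14643 raised 91 (55.2%) but also lowered 16, against 11.9% and 12.5%. The 16 lowered by Wy-14643 are 9.7% of the list, near its share over all transcripts. The median change of the 165 was 0.31 with phenobarbital, 0.48 with 1,4-dichlorobenzene, 0.46 with cyproterone acetate and 0.38 with Wy-14643. With pioglitazone 6 were raised and 2 lowered, against 0.935% and 1.48% of all transcripts, and with rosiglitazone 2 and 2, against 0.2% and 0.481%, with medians of 0.02 and 0.00. The 63 shared with phenobarbital make up 29.4% of all transcripts that phenobarbital raised, whereas the 91 shared with Wy-14643 make up 3.41% of its raised transcripts.

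The 120 transcripts lowered on both days were read in the same way. Phenobarbital lowered 13 (10.8%, against 0.28% of all transcripts) and raised 0, with a median change of -0.24. 1,4-Dichlorobenzene lowered 39 (32.5%, against 2.07%) and raised 2, with a median of -0.30. Cyproterone acetate lowered 75 (62.5%, against 5.14%) and raised 0, with a median of -0.49. Wy-14643 lowered 95 (79.2%, against 12.5%) and raised 5, with a median of -0.74. Pioglitazone lowered 16 (13.3%, against 1.48%) and raised 0, and rosiglitazone lowered 5 (4.17%, against 0.481%) and raised 3. Phenobarbital called few falls at all, so its 13 are 20.6% of the transcripts it lowered.

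In the lists made without replicate 1 of PBO 28 d the counts were as follows. Of the 160 raised transcripts, phenobarbital raised 68, 1,4-dichlorobenzene 114, Wy-14643 89 and cyproterone acetate 115. Of the 112 lowered, they lowered 23, 41, 91 and 76 in the same order of compounds. For phenobarbital the share lowered was then 20.5%, and pioglitazone lowered 14 and raised 0. Phenobarbital's count thus lay above pioglitazone's in this list and below it in the list of 120. These calls came from a fit without that array, in which phenobarbital's own calls also changed. Among all transcripts it lowered 88 there, against 63 with all arrays, and raised 238, against 214. The 23 and the 13 of the list of 120 therefore differ in the transcripts listed and in phenobarbital's own calls. The part of each was not tested. The calls of 1,4-dichlorobenzene, Wy-14643 and cyproterone acetate changed too. Among all transcripts they raised 975, 2769 and 1549 in that fit, against 874, 2668 and 1384 with all arrays. They lowered 534, 2910 and 1228 in that fit, each more than with all arrays. Their counts in these lists are therefore not read as more overlap than in the lists from all arrays.

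**Figure D4:**
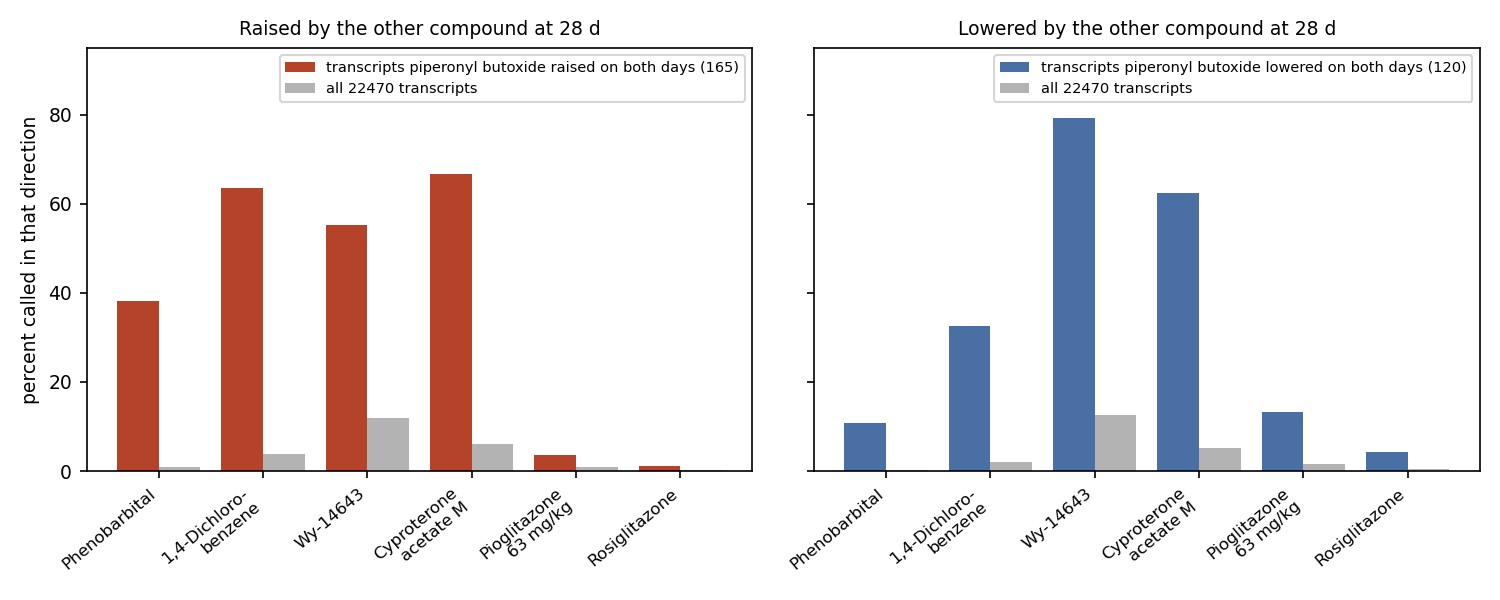
Percent of transcripts called at 28 d under each other compound in the direction of the piperonyl butoxide change, for the 165 raised (left, red) and the 120 lowered on both days (right, blue), beside the percent of all 22470 transcripts (grey). Among the raised transcripts the bars reach 66.7% with cyproterone acetate and 63.6% with 1,4-dichlorobenzene, and among the lowered ones 79.2% with Wy-14643, while rosiglitazone stays at 1.21% and 4.17%.

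Counted over phenobarbital, 1,4-dichlorobenzene, Wy-14643 and cyproterone acetate, 35 of the 165 raised transcripts were raised by all 4, 41 by 3, 38 by 2, 30 by 1 and 21 by none. Of the 120 lowered, 4 were lowered by all 4 compounds, 30 by 3, 41 by 2, 34 by 1 and 11 by none. Such counts were not made over all transcripts. How far the lists exceed the general overlap of these compounds was therefore not tested. The strongest responses, chosen by their size on piperonyl butoxide's own arrays, were read in the other compounds. Over all transcripts phenobarbital raised 0.952% and lowered 0.28%, and 1,4-dichlorobenzene raised 3.89% and lowered 2.07%. For cyproterone acetate these shares were 6.16% and 5.14%, and for Wy-14643 11.9% and 12.5%. Pioglitazone raised 0.935% and rosiglitazone 0.2%. Of the 7 transcripts raised at least 4-fold on both days, phenobarbital, 1,4-dichlorobenzene and cyproterone acetate each raised 6, Wy-14643 raised 5 and lowered 1, pioglitazone raised 2 and rosiglitazone 0. Of the 38 raised at least 2-fold on both days, the counts raised were 20 with phenobarbital, 26 with 1,4-dichlorobenzene, 28 with cyproterone acetate and 25 with Wy-14643, while cyproterone acetate lowered 1 and Wy-14643 lowered 2. Of the 30 lowered at least 2-fold on both days, Wy-14643 lowered 23 and raised 3, cyproterone acetate lowered 17 and raised 0, 1,4-dichlorobenzene lowered 9 and raised 1, and phenobarbital lowered 6 and raised 0. A call by piperonyl butoxide and none by another compound does not show a difference. Of the 21 raised by no other of the 4, 2 passed the test of the difference from phenobarbital and 0 that from 1,4-dichlorobenzene. Of the 11 lowered by no other, 3 and 4 did, and 2 passed both tests.

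The corn oil controls of the cyproterone acetate study come in groups lettered F and M, letters that the labels do not spell out. At 28 d, F controls were above M controls in 4.09% of all transcripts and below them in 3.6%. Of the 165 raised transcripts 26 were higher and 21 lower in F, and of the 120 lowered transcripts 11 were higher and 35 lower in F (29.2%). The other 74 of the 120 were called in neither direction.

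The effects of piperonyl butoxide and phenobarbital at 28 d, each against its own controls, differed in 326 transcripts (1.45%), with piperonyl butoxide higher in 153 and lower in 173. With arrays centred on their medians the higher share was 57.7%, against 46.9% as deposited. These 326 were chosen on the same arrays that give the calls against controls, which favours such calls, so their split is a description. Over all transcripts piperonyl butoxide raised 4.93% and lowered 5.71% at 28 d. Phenobarbital raised 0.952% and lowered 0.28%. In most of the 326 piperonyl butoxide had a call against its controls and phenobarbital had none. Of the 153, piperonyl butoxide raised 142 and phenobarbital raised 14 and lowered 4, with median changes of 0.72 and -0.01. Of the 173, piperonyl butoxide lowered 155 and phenobarbital raised 14 and lowered 1, with medians of -0.71 and 0.02. The 165 recurring rises included 34 of the transcripts in which piperonyl butoxide was higher and 0 in which it was lower, and the 120 recurring falls included 28 in which it was lower and 0 in which it was higher. Those lists were chosen on piperonyl butoxide's own arrays, which favours this direction. In the lists made without replicate 1 of PBO 28 d, 27 of the 160 rises were higher and 21 of the 112 falls lower, with 0 the other way. Study set and compound cannot be told apart here: the 28 d controls of set C and of phenobarbital's set A differed from each other in 74 transcripts (0.329%), 39 higher and 35 lower in set C. The 326 fell to 160 without replicate 1 of PBO 28 d and was 1101 without replicate 2 and 658 without replicate 3. It was 169 and 183 without control replicates 2 and 3 of set C, 207 without phenobarbital replicate 3 and 202 without control replicate 5 of set A.

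Against 1,4-dichlorobenzene the effect differed in 235 transcripts (1.05%), higher for piperonyl butoxide in 70 and lower in 165. Of the 70, piperonyl butoxide raised 48 and 1,4-dichlorobenzene lowered 23, and of the 165, piperonyl butoxide lowered 113 and 1,4-dichlorobenzene raised 53. The 235 were chosen on the same arrays that give these calls, so the split is a description. Over all transcripts piperonyl butoxide raised 4.93% and lowered 5.71%, and 1,4-dichlorobenzene raised 3.89% and lowered 2.07%. The vehicles also differed, and the 28 d controls of set C and the corn oil controls of set B differed from each other in 1098 transcripts (4.89%). This count and the 235 are not ranked, because the median half-width was 0.31 for the control comparison and 0.44 for the difference of effects. Only 5 of the 165 recurring rises were larger and 1 smaller under piperonyl butoxide than under 1,4-dichlorobenzene, while 20 of the 120 recurring falls were deeper and 0 shallower. Here too the choice of the lists on piperonyl butoxide's own arrays favours larger rises and deeper falls. In the lists made without replicate 1 of PBO 28 d, 2 of the 160 rises were larger and 5 of the 112 falls were deeper. Without replicate 1 of PBO 28 d the count was 35 in place of 235. It was 846 without replicate 2 and 716 without replicate 3, 144 and 110 without control replicates 2 and 3 of set C, and 152 without corn oil control replicate 1.

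Methapyrilene, an antihistamine given at 30 mg/kg, belongs to the same study set and shares the 28 d controls with piperonyl butoxide, so the treated livers were compared directly. Piperonyl butoxide livers differed from methapyrilene livers in 4241 transcripts (18.9%), higher in 1966 and lower in 2275. With arrays centred on their medians the higher share was 56.2%, against 46.4% as deposited, so the prevailing direction depends on the scaling. Of the 1966, piperonyl butoxide raised 587 and methapyrilene lowered 365 against those controls, while 1033 were called in neither way. Of the 2275, piperonyl butoxide lowered 672 and methapyrilene raised 690, and 939 were called in neither way. The 4241 were chosen on the same treated arrays that give these calls, so this split is a description too. Over all 22470 transcripts piperonyl butoxide raised 1107 and lowered 1283, and methapyrilene raised 1207 and lowered 913. Of the 165 recurring rises, 116 were higher in piperonyl butoxide than in methapyrilene livers and 6 were lower. Of the 120 recurring falls 57 were lower and 0 higher. Among all 22470 transcripts 1966 were higher and 2275 lower. The lists were chosen on these same piperonyl butoxide arrays, which favours these directions, so the counts are a description. In the lists made without replicate 1 of PBO 28 d, 110 of the 160 rises were higher and 41 of the 112 falls lower, with 0 the other way. The count of 4241 was 1900 without replicate 1 of PBO 28 d, 2759 without methapyrilene replicate 2 and 2603 without methapyrilene replicate 3. With the spread taken from the groups of this comparison alone it was 1, and with set C alone it was 1964.

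The named transcripts were read in the same comparisons. At 28 d ENSRNOT00000044127 averaged 12.22 ± 0.70 (SD, n = 3) under piperonyl butoxide, against 4.38 ± 0.71 (n = 3) in controls, 12.47 ± 0.22 (n = 5) under phenobarbital, against 6.22 ± 1.67 (n = 5), and 12.38 ± 0.27 (n = 4) under 1,4-dichlorobenzene, against 6.09 ± 1.20 (n = 4). The 3 treated groups reached nearly the same level from controls that differed more. The rise under piperonyl butoxide exceeded that under phenobarbital by 1.59 (SE 0.94, adjusted p = 0.441) and that under 1,4-dichlorobenzene by 1.55 (SE 0.98, adjusted p = 0.499), neither past the test. Methapyrilene livers read 9.39, 6.03 and 5.38, and piperonyl butoxide livers were 5.29 higher (SE 0.74, adjusted p = 6.61e-08). Against the shared controls methapyrilene raised this transcript by 2.55 (adjusted p = 0.0153). Wy-14643 raised it by 5.44 (adjusted p = 2.89e-13) and cyproterone acetate in M by 2.60 (adjusted p = 0.00261), each against its own controls. Pioglitazone and rosiglitazone did not pass the test (adjusted p = 0.759 and 0.885).

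ENSRNOT00000028196 was likewise raised at 28 d by phenobarbital (change 4.10, adjusted p = 7.02e-10) and by 1,4-dichlorobenzene (change 3.79, adjusted p = 1.91e-07). It averaged 12.75 ± 0.44 (n = 3) under piperonyl butoxide, 13.12 ± 0.13 (n = 5) under phenobarbital and 12.94 ± 0.15 (n = 4) under 1,4-dichlorobenzene. Their controls averaged 7.37 ± 0.11 (n = 3), 9.03 ± 1.03 (n = 5) and 9.16 ± 1.24 (n = 4) in the same order. The treated level was thus lowest under piperonyl butoxide, and its controls were lower still against the other controls. The rise under piperonyl butoxide exceeded that under phenobarbital by 1.28 (adjusted p = 0.462) and that under 1,4-dichlorobenzene by 1.59 (adjusted p = 0.375). Against its own controls Wy-14643 raised this transcript by 3.72 (adjusted p = 5.66e-10) and cyproterone acetate in M by 2.15 (adjusted p = 0.00287). Changes with methapyrilene, pioglitazone and rosiglitazone did not pass the test (adjusted p = 0.0629, 0.572 and 0.887). Piperonyl butoxide livers were 3.65 above methapyrilene livers, which averaged 9.10 ± 1.05 (n = 3, adjusted p = 5.65e-06). With the spread taken from the 28 d groups of this comparison alone, the adjusted p was 0.0502 here and 0.0689 for ENSRNOT00000044127.

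ENSRNOT00000014267 was also lowered at 28 d by methapyrilene, with a change of -1.95 against the shared controls (adjusted p = 3.99e-05). Piperonyl butoxide livers differed from methapyrilene livers by -0.80, which did not pass the test (adjusted p = 0.0991). Each of phenobarbital, 1,4-dichlorobenzene, Wy-14643 and cyproterone acetate lowered it too. The change was -1.07 with phenobarbital (adjusted p = 0.0194), -2.24 with 1,4-dichlorobenzene (adjusted p = 5.54e-08), -2.96 with Wy-14643 (adjusted p = 5.4e-16) and -2.78 with cyproterone acetate in M (adjusted p = 1.75e-11). The fall under piperonyl butoxide was deeper than under phenobarbital by -1.68 (SE 0.44, adjusted p = 0.0325), yet the treated levels were 4.60 ± 1.41 (n = 3) and 4.74 ± 0.61 (n = 5), and the controls differed, as given above. That difference lost its call in 10 of 25 alternative settings, with adjusted p between 0.00339 and 0.523, among them leaving out PBO replicate 3 (difference -0.88, adjusted p = 0.254). F controls lay below M controls in this transcript by -2.70 (SE 0.30, adjusted p = 1.7e-11).

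ENSRNOT00000073593 fell with Wy-14643 (change -4.31, adjusted p = 1.06e-25) and with methapyrilene against the controls it shares with piperonyl butoxide (change -2.51, adjusted p = 6.85e-08). Its change was -0.47 with phenobarbital (adjusted p = 0.53), -0.14 with 1,4-dichlorobenzene (adjusted p = 0.875) and -0.50 with cyproterone acetate in M (adjusted p = 0.331). The piperonyl butoxide change differed from that of phenobarbital by -1.53 (SE 0.43, adjusted p = 0.0463) and from that of 1,4-dichlorobenzene by -1.87 (SE 0.45, adjusted p = 0.0181). Without replicate 1 of PBO 28 d these adjusted p-values were 0.12 and 0.0729, so neither difference then passed. The call against phenobarbital was lost in 15 of 25 alternative settings (adjusted p 0.0288 to 0.268) and that against 1,4-dichlorobenzene in 3 of 23 (0.00957 to 0.173). Methapyrilene livers read 9.00, 6.53 and 6.33, with replicate 1 far above the other 2. Piperonyl butoxide livers were 0.51 higher (adjusted p = 0.309), and 1.37 higher without that methapyrilene array (adjusted p = 0.00105).

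**Figure D5:**
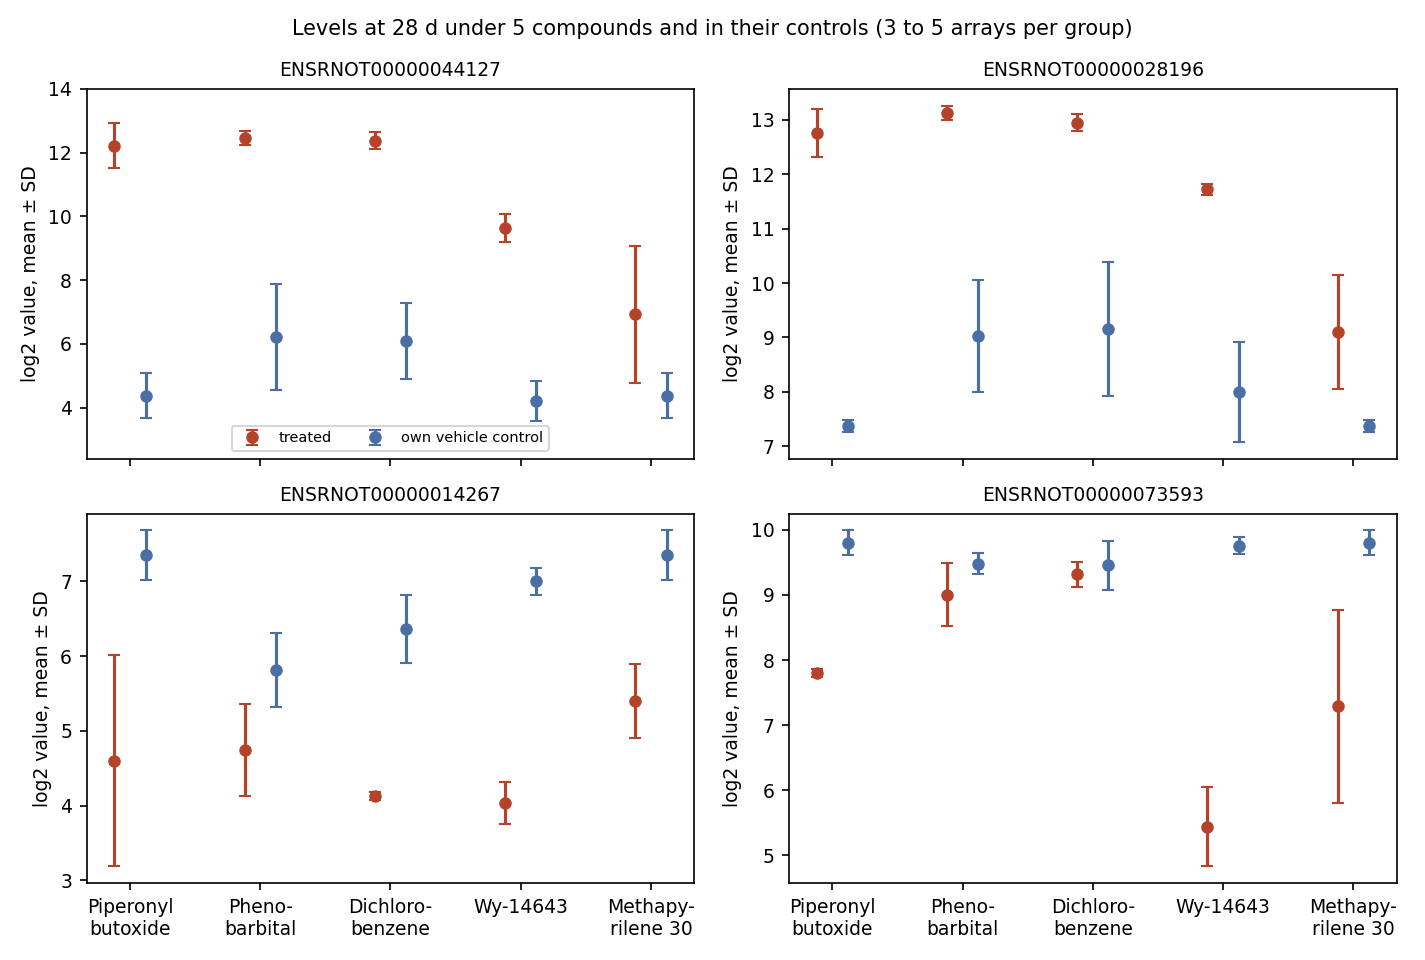
Mean ± SD of the deposited log2 value of the 4 named transcripts at 28 d in treated livers (red) and in the vehicle controls of each compound (blue), with 3 to 5 arrays per group. The 2 rising transcripts reach similar levels under piperonyl butoxide, phenobarbital and 1,4-dichlorobenzene, and ENSRNOT00000073593 lies apart from its controls under piperonyl butoxide, Wy-14643 and methapyrilene.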

How the data were processed

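Liver RNA was measured on Affymetrix RaGene 2.0 ST arrays. The deposited values are log2 levels that the authors made with RMA and affy, per the submitters' processing notes, whose versions are not given in the sources used here, nor is whether RMA was run on the arrays together. Of 23110 probe sets, 640 repeated another exactly and were left out, leaving 22470. Arrays without the labels' quality mark, 11 in number, were left out, which left 112 in 29 groups. limma 3.58.1 in R 4.3.3 fitted a mean for each group, with 83 residual and 4.23 prior degrees of freedom and no trend. It was tested on simulated data. P-values are two-sided and Benjamini-Hochberg adjusted over all 22470 transcripts. The labels say that animals were randomised, but not that each array is a different animal, so p-values measure the spread between arrays. Precision is limited by 3 arrays per group.

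The gene table (GRCr8, 47357 genes) paired 0 probe sets, so planned gene lists, cell type markers and named genes by symbol could not be run and the unit is the transcript. Named transcripts had to be called in the same direction on both days with no overlap of arrays on either day, and the 2 largest rises and 2 largest falls by the mean of both days were taken. Groups, transcript lists and comparisons were chosen with earlier results of these data known. Alternatives were all 123 arrays, fewer groups in the fit, centring, quantile normalization, a filter on dim transcripts, a trend with robust variances, identical probe sets kept, a replicate block and leaving out each array. The lists without replicate 1 of PBO 28 d were added after seeing the data.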

Additional observations from a re-analysis of the deposited data

Results flagged for a closer look

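The effect of piperonyl butoxide differed between the 28 d and the 14 d animals in 9 of 22470 transcripts by the test of the difference itself (limma, Benjamini-Hochberg adjusted p under 0.05), and 2411 had an unadjusted p under 0.05. The effect was higher at 28 d in 6 and lower in 3. All 9 were called at 28 d and 0 at 14 d. In 3 of the 9 the controls differed between the days by -0.80, -0.81 and -0.71, more than the treated groups did. The count was 450 without replicate 2 of PBO 28 d, and its cause was not tested.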

How the results depend on the processing

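The counts called depended on which groups supplied the spread and on single arrays. With only control set C in the fit they were 131 at 14 d, 873 at 28 d, 0 for the day difference, 33 against phenobarbital, 70 against 1,4-dichlorobenzene and 1964 against methapyrilene (in the comparisons with phenobarbital and 1,4-dichlorobenzene, their own groups were added). With only the groups of each comparison they were 79, 72, 1, 19, 17 and 1 in the same order, and 0 for controls between days. The day difference was 5 without the dimmest 40%. The single call between control days became 0 with the arrays of lesser quality included, without the dimmest 40% and with the replicate block, and 2 after quantile normalization. Leaving out 1 array gave 197 to 302 at 14 d, 1057 to 3424 at 28 d, 2 to 450 for the day difference, 0 to 13 for control days, 160 to 1101 against phenobarbital, 35 to 846 against 1,4-dichlorobenzene and 1900 to 4908 against methapyrilene. Replicate numbers did not pair the arrays: same-numbered treated and control arrays had deviations correlated at 0.027, 0.010 and -0.078 at 14 d and at -0.012, -0.046 and -0.031 at 28 d, and with the replicate block the counts were 435, 2501, 10, 405, 314 and 4334. Centring turned the share raised at 28 d to 57.8%, against 46.3%, and the share higher than phenobarbital to 57.7%, against 46.9%. The 4 named transcripts had the same direction against vehicle on both days in all 15 alternatives run for each. The causes were not tested.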
